A study of Mus musculus with 5 samples.

Results

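Aif1 and 6 genes beside it on mouse chromosome 17 were examined for peaks of a c-Maf antibody, 7 of 21887 protein-coding genes in the RefSeq table used here. The genes were chosen by position and with these data in view, since each c-Maf antibody library has a peak in Aif1, so peaks inside or near them are described and not tested. In order along the chromosome they are Prrc2a, Aif1, Lst1, Ltb, Tnf, Lta and Nfkbil1. A peak was assigned to a gene when it lay inside the gene span or within 20 kb of it.

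Chromatin immunoprecipitation with sequencing (ChIP-seq) was carried out on bone marrow macrophages of the C57Bl/6 strain background. The cell type label gives M2 polarization in culture, whereas the sample titles read M0. No further treatment, genotype or age is given, and the cells of the c-Maf antibody, isotype and input libraries carry the same labels. There were 2 libraries of the c-Maf antibody, 2 of normal rabbit immunoglobulin as isotype control and 1 of input, numbered 3 and 4 (input 4 only), and the series' design text describes the numbers as biological replicates. Peak lists hold no expression values, so the labelled cell type could not be checked against the level of its markers.

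c-Maf is a basic leucine zipper transcription factor of the macrophage and lymphocyte lineages, which binds DNA as a dimer at Maf recognition elements. The genes studied here lie in the class III part of the major histocompatibility complex (MHC), a gene-dense stretch rich in genes of inflammation. Aif1 encodes the calcium-binding, actin-bundling protein IBA1, widely used as a marker of macrophages and microglia. Lst1 encodes a small membrane protein of leukocytes. Tnf, Lta and Ltb encode the cytokines tumour necrosis factor, lymphotoxin alpha and lymphotoxin beta. Nfkbil1 encodes a nuclear protein related to the inhibitors of NF-kB, and Prrc2a encodes a large proline-rich RNA-binding protein.

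The bases under the peaks are not printed, as no genome was at hand for them. The promoter windows of RefSeq on GRCm38.p6, the assembly behind mm10, run from 250 bases before to 50 bases after a start site, and all of the 7 genes but Lst1 had at least 1 window (7 windows in all). None of the 7 windows held a peak of any list. The Aif1 window, at chr17:35176003-35176302 on the minus strand, is shown because it is the start site nearest to the c-Maf antibody peaks, which ended 3198 bp (number 3) and 3304 bp (number 4) from the window. The Nfkbil1 window at chr17:35236432-35236731, also on the minus strand, is shown because it was the only one of the 7 with the Maf motif TGCTGA, marked in capitals, which begins 32 bases before the start site.
Aif1 promoter: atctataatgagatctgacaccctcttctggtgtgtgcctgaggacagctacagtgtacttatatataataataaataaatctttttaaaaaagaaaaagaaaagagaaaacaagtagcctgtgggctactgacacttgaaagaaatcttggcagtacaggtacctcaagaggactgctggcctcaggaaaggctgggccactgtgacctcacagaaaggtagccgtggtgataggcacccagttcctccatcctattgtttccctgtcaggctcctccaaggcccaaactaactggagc
Nfkbil1 promoter: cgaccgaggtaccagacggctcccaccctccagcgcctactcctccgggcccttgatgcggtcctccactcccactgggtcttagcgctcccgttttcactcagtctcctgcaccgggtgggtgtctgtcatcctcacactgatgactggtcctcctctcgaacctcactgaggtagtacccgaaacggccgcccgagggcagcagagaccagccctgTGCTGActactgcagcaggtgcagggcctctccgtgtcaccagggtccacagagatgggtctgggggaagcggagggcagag

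On both strands, TGCTGA was found in 19.5% of the 32851 promoter windows of the RefSeq table. The AP-1 site TGANTCA was found in 7.81% of them and the PU.1-like sequence GAGGAAGT in 3.20%, and neither was in any of the 7 windows of the genes studied. TGANTCA and TGCTGA can share bases, since both contain TGA. The Aif1 window held no match to any of the 3 motifs. The Nfkbil1 window with TGCTGA lay 63.6 kb and 57.7 kb from the nearest c-Maf antibody peaks of numbers 3 and 4. These matches are letters within 300 bases and were not tied to a peak.

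Aif1 was the only one of the 7 genes with a peak inside its span, and that peak was found in both c-Maf antibody libraries and in neither isotype library. Over all genes, 23.1% had a c-Maf antibody peak inside the span in number 3 and 17.6% in number 4, while 33.7% and 15.3% had an isotype peak, and 0.946% held a region that both c-Maf antibody lists and no isotype list covered (0.480% with the antibodies exchanged). In number 3 the peak ran from 35172647 to 35172805 (mm10), 159 bp, with its summit at 35172705. In number 4 it ran from 35172640 to 35172699, 60 bp, with its summit at 35172674. The summits were 31 bp apart and the peaks shared 53 bp, which was 33.3% of the longer and 88.3% of the shorter peak. Joined, they gave one region at chr17:35172640-35172805 of 166 bp, held by both c-Maf antibody lists and no isotype list. Such a region is called a shared c-Maf region below, and a shared isotype region is its counterpart with the antibodies exchanged.

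**Figure D1:**
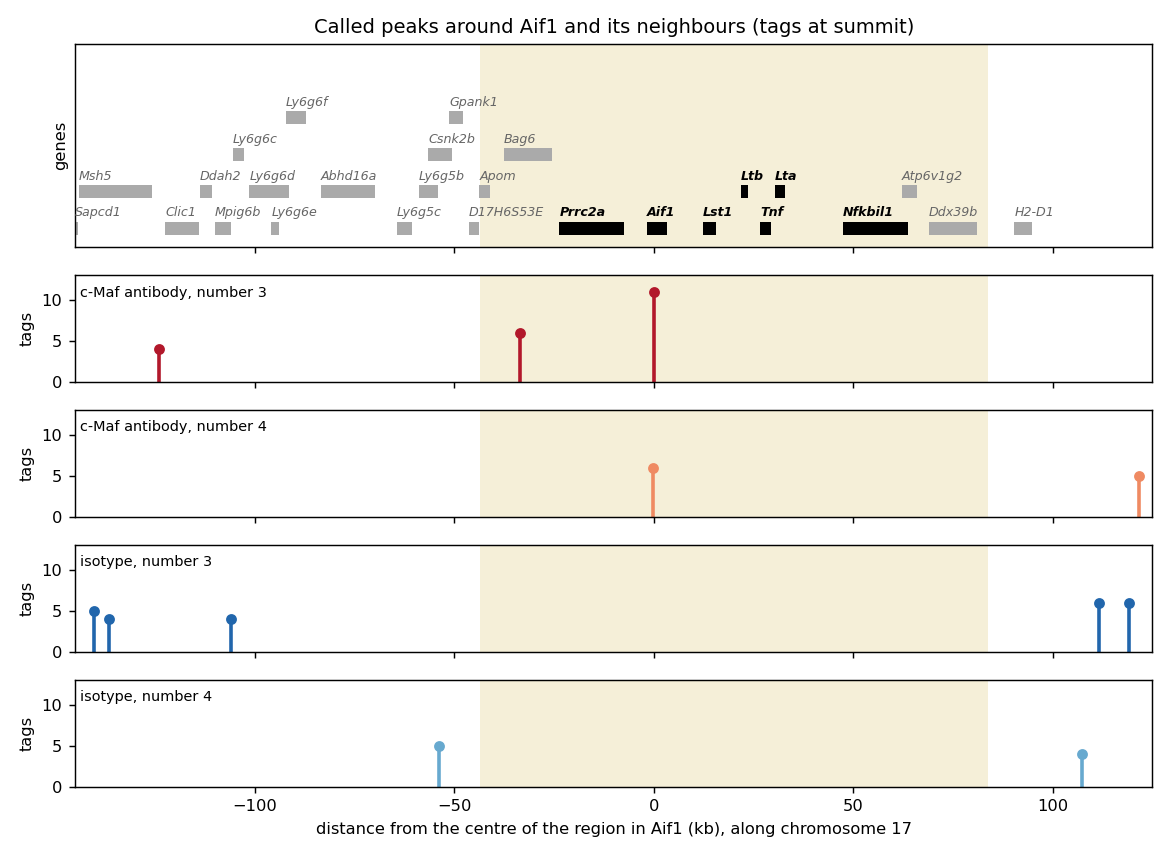
Peaks called in each of the 4 libraries around Aif1, plotted by distance from the centre of the Aif1 region in kb, with the height giving the sequence tags at the summit. Genes studied are black and other protein-coding genes grey, and the shaded band spans the 7 genes and 20 kb on either side. The band holds 2 peaks of the c-Maf antibody library of number 3, 1 of number 4 and none of either isotype library.

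The deposited pileup at the Aif1 summit was 10.68 scaled tags in number 3 and 5.92 in number 4. Divided by the scaling of each library, these are 11 and 6 sequenced tags, with exact Poisson 95% intervals of 5.49 to 19.7 and 2.20 to 13.1 that cover counting error only. The intervals overlap, and the counts of the 2 libraries were not tested against each other. The authors' fold enrichment over the input level was 5.84 in number 3 and 4.68 in number 4. The deposited values imply an input level of 1.00 scaled tags at the summit of number 3 and 0.48 at that of number 4. The same input library served both lists, and the level at number 4 matched the background level of the input for that list, 0.475. The 2 levels are therefore not readings of separate inputs.

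The Aif1 peak ranked far higher in the list of number 3 than in that of number 4. It had a p-value of 1e-08 and a q-value of 0.00447 in number 3, where 0.98% of the 23434 peaks had a smaller p. In number 4 it had a p-value of 1.13e-05 and a q-value of 0.590, and 20.64% of the 17620 peaks had a smaller p. The authors kept all peaks to a p-value of 0.01, so the peak of number 4 is in the list without passing a q-value of 0.05. At 60 bp it also had the shortest length in that list, equal to the fragment length, which was the median length of the list as well. In number 3, 1.59% of the peaks were at least as long as the Aif1 peak of 159 bp.

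**Figure D2:**
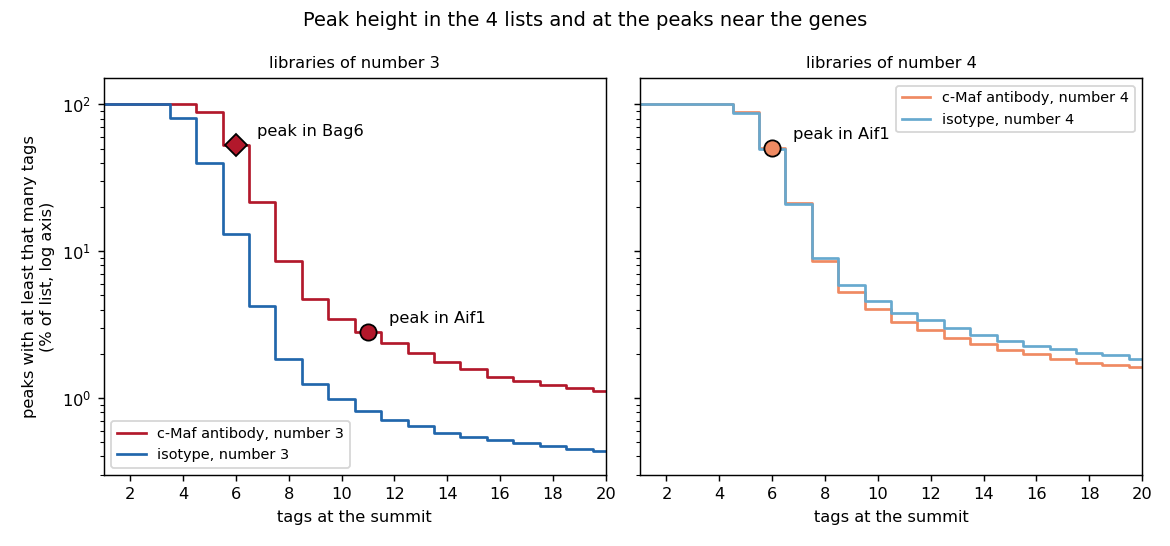
Share of the peaks of each list that had at least a given number of tags at the summit, on a log axis, for the libraries of number 3 (left) and number 4 (right). Circles mark the peak in Aif1 and the diamond the peak in Bag6. With 11 tags, the Aif1 peak of number 3 was reached by 2.83% of its list, and with 6 tags that of number 4 by 50.8%.

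Among the 491 shared c-Maf regions of the genome, the Aif1 region ranked 63 by the p-value of number 3 and 167 by that of number 4. The median shared c-Maf region had 7 and 6 tags in these libraries. Of these, 71, the Aif1 region among them, passed a q-value of 0.05 in number 3 only. Another 28 passed in number 4 only, 36 in both and 356 in neither.

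Aif1 was the nearest gene by every measure taken. Both peaks lay wholly inside the Aif1 span (35170986 to 35176083). The gene is read on the minus strand from a start site at 35176052, so the summits, on average 3362 bp from that start, lay towards the 3′ end, 1719 bp (number 3) and 1688 bp (number 4) from the lower gene boundary. Whether the peaks fall in an exon or an intron was not analysed here, since the gene table gives spans only. Prrc2a came next, with its span 7.3 kb and its start site 7.8 kb away on the other side of the 3′ end of Aif1.

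The members of the lymphotoxin and TNF family lay farther from the region and had no peak of their own. Lst1, the next gene studied beyond the Aif1 start, was 12.3 kb away, and a pseudogene, Ncr3-ps, lay between them at 7.7 kb. Lst1 and Ltb stood on either side of the 20 kb limit, Ltb at 21.7 kb. Tnf was 26.6 kb, Lta 30.4 kb and Nfkbil1 47.4 kb away. No peak of any list lay inside Prrc2a, Lst1, Ltb, Tnf, Lta or Nfkbil1.

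Within 20 kb of any of the 7 genes there were 3 peaks in all. The c-Maf antibody library of number 3 had 2, that of number 4 had 1, and both isotype libraries had 0. The peak not yet described belonged to number 3 alone. It lay at 35139072 to 35139134, inside Bag6, which encodes a chaperone for membrane and misfolded proteins, and 9.9 kb from Prrc2a. It had 6 tags (exact Poisson interval 2.20 to 13.1), a fold enrichment of 4.32 and a q-value of 0.520. With 63 bp it was as short as that list allows, which was also the median length of the list. The c-Maf antibody library of number 4 had no peak within 20 kb of Bag6.

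Gene by gene, the c-Maf antibody peaks near Prrc2a and Lst1 were those of Aif1, apart from the one in Bag6. Prrc2a had 2 peaks within 20 kb in number 3 and 1 in number 4. Aif1 and Lst1 each had 1 in both. Ltb, Tnf, Lta and Nfkbil1 had 0 in every list. The 3 genes near the shared c-Maf region therefore count 1 region 3 times.

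A shared c-Maf region lay inside or within 20 kb of 3 of the 7 genes, against 1.89% of all 21887 protein-coding genes. No shared isotype region lay within 20 kb of any of the 7, against 0.868% of all genes. The rule used these peaks, so the difference between 3 of 7 and the background is not a result. Regions that reach several genes were uncommon, with 33 of 473 shared c-Maf regions on the assembled chromosomes having 3 or more protein-coding genes within 20 kb, and 201 having 1.

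Single lists gave much higher backgrounds. A peak of the c-Maf antibody lay within 20 kb of 45.1% of genes in number 3 and 34.6% in number 4, and 3 of the 7 genes had one in each. A peak of the isotype lay within 20 kb of 65.0% of genes in number 3 and 30.1% in number 4, and none of the 7 genes had one. The 7 genes lie side by side, so they do not give 7 separate readings.

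The absence of isotype peaks covered a short stretch. The 7 genes with 20 kb on either side span 127.4 kb, in which the isotype lists would have held 2.7 (number 3) and 0.8 (number 4) peaks at their density over chromosome 17. A count of 0 over that length allows up to 23.5 peaks per Mb, above the chromosome 17 densities of 21.6 and 6.2 per Mb. Taken list by list, a depletion of isotype peaks was thus not detectable. Together the isotype lists would have held 3.5 peaks, beside 0 found. The c-Maf antibody lists would have held 1.2 and 0.8 peaks at their own densities, beside the 2 and 1 found. The stretch was chosen with these peaks known, so the counts describe it and do not test for a depletion or an excess.

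Distances showed the same layout. From Aif1, the nearest isotype peak was 104.1 kb away in number 3 and 52.1 kb in number 4. From Prrc2a these distances were 82.2 kb and 30.2 kb, and from Lst1 95.7 kb and 66.2 kb. Each of these genes was closer to a c-Maf antibody peak of either library than to an isotype peak of either library. That order also held for Ltb, Tnf and Lta, whose nearest isotype peaks lay between 74.4 kb and 87.9 kb away. It did not hold for Nfkbil1, which was 47.4 kb and 47.5 kb from the c-Maf antibody peaks, and 47.7 kb (number 3) and 43.5 kb (number 4) from isotype peaks beyond H2-D1, a class I gene. For every gene the c-Maf antibody distances are to the peaks in Aif1, beside which the genes were chosen. The order is therefore a description of the layout and not a separate reading for each gene.

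**Figure D3:**
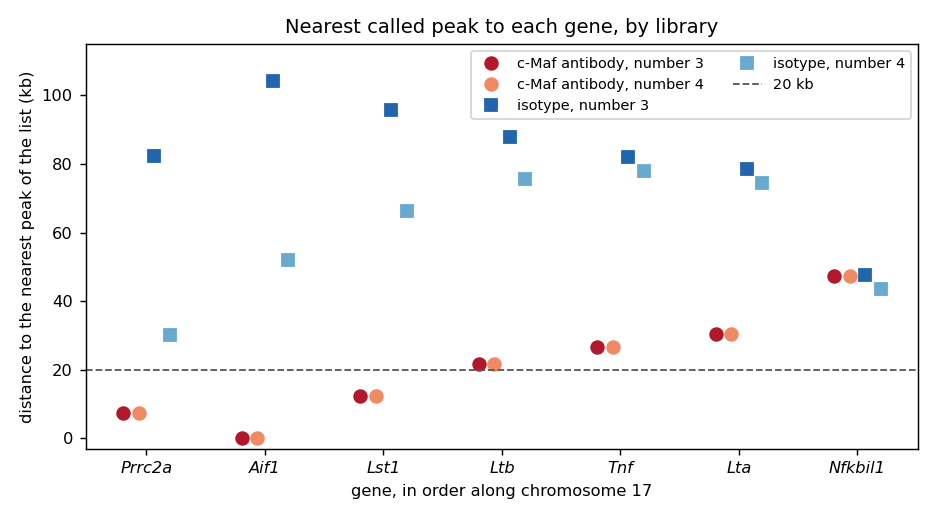
Distance in kb from each of the 7 genes to the nearest peak of each library, with circles for the c-Maf antibody and squares for the isotype. The dashed line marks 20 kb. For 6 genes both circles lie below both squares, and at Nfkbil1 they lie between 43.5 kb and 47.7 kb together with the squares. All circles refer to the peaks in Aif1, beside which the genes were chosen.

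The Aif1 region stood alone in this stretch. The next peak of any list on the Prrc2a side was the one in Bag6, 33.5 kb away. On the Tnf side no list had a peak for 107.2 kb, up to an isotype peak of number 4 beyond H2-D1 with 4 tags. The isotype peak nearest to the 7 genes, also of number 4, lay inside Csnk2b, which encodes the regulatory subunit of casein kinase II, with 5 tags and a fold enrichment of 3.64.

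An unlisted place is not a place without tags. With the cut-off of the authors, a peak needed at least 4 tags over the background level of the input in the c-Maf antibody libraries and in the isotype library of number 4, and at least 3 in the isotype library of number 3. These are also the lowest tag numbers found in the lists. At the input level of the Aif1 summit of number 3, 5 tags were needed in each library. At that input level the isotype libraries could have held up to 4 tags without a call, or more over a stretch too short to be called. The c-Maf antibody library of number 3 had 11 at that summit. The summit of number 4, with 6 tags, had a lower input level of 0.48, and the tags needed at that level were not worked out. Depth does not differ much, with 21655683 to 22017759 tags per library after filtering.

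Of 29 listed neighbours in the class III stretch, 27 were found in the gene table. None of the 27 had a shared c-Maf or a shared isotype region within 20 kb, and at the shares of all genes, 1.89% and 0.868%, a list of this length would hold few or none. Single lists reached 9 of the 27 in c-Maf antibody number 3 (45.1% of all genes), 0 in number 4 (34.6%), 18 in isotype number 3 (65.0%) and 7 in isotype number 4 (30.1%). Neighbouring genes count the same peaks several times. Across the span of this list and the 7 genes, 355.2 kb, the c-Maf antibody lists held 3 and 1 peaks, beside 3.3 and 2.3 at their chromosome 17 densities, and the isotype lists 6 and 1, beside 7.7 and 2.2. Those of isotype number 3 included peaks in Mpig6b, a platelet receptor gene, and Msh5, a meiotic recombination gene, with 4 or 5 tags each.

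None of 18 receptors and signalling genes that act with TNF and the lymphotoxins had a shared c-Maf region within 20 kb (1.89% of all genes) or a shared isotype region (0.868%), and with so few genes the count is near that background. In single lists a peak lay within 5 kb of 2 of the 18 in c-Maf antibody number 3 (29.3% of all genes), 3 in number 4 (21.9%), 4 in isotype number 3 (43.0%) and 0 in isotype number 4 (19.1%). The c-Maf antibody peaks lay near Tnfrsf1b, a TNF receptor gene, and Traf2, an adaptor of these receptors, in number 3, and near Casp8, Birc2 and Birc3, genes of cell death and survival, in number 4. The isotype peaks lay near Birc2 as well, and near Traf1, Traf3 and Traf5, further adaptors. Of 13 NF-kB subunits, inhibitors and kinases, none had a shared c-Maf region within 20 kb. Among them Nfkbie, an inhibitor, had a shared isotype region 17.4 kb away. Both counts are too small to be read apart from the same shares.

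Of 9 genes for actin-bundling or calcium-binding proteins, including Aif1l, the paralogue of Aif1, none had a shared c-Maf region within 20 kb. The same count of 0 was found for 14 genes of MHC class II presentation and 8 class I genes, and at 1.89% of all genes none of these lists is long enough for it to stand out. In single lists a c-Maf antibody peak lay within 5 kb of 2 of the 9 in number 3 (29.3% of all genes) and 2 in number 4 (21.9%). An isotype peak lay within 5 kb of 5 in number 3 (43.0%) and 1 in number 4 (19.1%). Aif1l was among them in each c-Maf antibody list and in isotype number 3, but its c-Maf antibody peaks did not make a shared c-Maf region. Of the 8 class I genes, 6 had a c-Maf antibody peak of number 4 within 20 kb (34.6% of all genes) and 1, H2-K1, had one of number 3 (45.1%). The isotype lists reached 2 of the 8 in number 3 (65.0%) and 1 in number 4 (30.1%). The 6 genes include the neighbours H2-Q1, H2-Q2, H2-Q4 and H2-Q7, and 5 peaks lay behind them.

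Among 9 macrophage markers, Aif1 was 1 of 4 with a shared c-Maf region within 5 kb, with Csf1r, Itgam and Mertk, against 1.22% of all genes, and 0 of 9 had a shared isotype region, against 0.585%. This list holds genes known from these data to have such regions. Of the 4, Csf1r and Itgam had no isotype peak within 5 kb, as was the case for Aif1. Mertk had a peak in both isotype lists, with a background of 43.0% in number 3 and 19.1% in number 4. Within 20 kb Itgam also had a peak of isotype number 3 (65.0% of all genes), whereas Csf1r and Aif1 had none of either isotype list. The Aif1 region had 11 and 6 tags, beside 12 and 7 in the stronger region of Csf1r, 6 and 8 in Itgam and 10 and 8 near Mertk. Fold enrichments over the input level were 5.84 and 4.68 at Aif1, and 7.2 and 4.76 in that region of Csf1r. They were 4.55 and 6.03 in Itgam and 5.89 and 2.96 near Mertk. In number 4 the Mertk peak thus had more tags than the Aif1 peak but a lower fold. For 7 T cell, 5 B cell and 7 neutrophil markers the count within 20 kb was 0, which at the 1.89% of all genes says nothing about these cell types.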

How the data were processed

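ChIP-seq peak lists of 4 libraries were used, and the input library only as it entered the authors' calls. Per the file headers, the authors called peaks in each library with MACS 2.1.1.20160309 on single-end reads, with a p-value cut-off of 0.01, the input of number 4 as control for all lists, 1 tag kept per position, the larger library scaled down, and an effective genome size of 2.70e+09, the human setting. The submitters' processing notes also name MACS 1.4.2, FastQC and mm10. No source used here names the aligner. The deposited columns are the pileup signal at the summit, the fold enrichment, a ratio with 1 added to both parts, and −log10 of the p-value and q-value.

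Tags at a summit were the pileup divided by the scaling factor. The result was within 0.02 tags of a whole number (0.2% above 10 tags) for 100.0% of peaks in each list. Input levels were derived from pileup and fold. Peaks of all lists overlapping by 1 bp were merged. A shared c-Maf region held both c-Maf antibody lists and neither isotype list, and shared isotype regions the reverse. Gene spans came from RefSeq (GRCm38.p6) and promoters from its sequence table, read with Python 3.11.15 and pandas 2.3.3. Region counting was tested on simulated lists. No test was made, because the genes were chosen for these peaks. The members and lists were chosen with earlier results of these data known. Named genes are the 7 members, listed genes with an exclusive region within 5 kb, and the peaks around Aif1. Other listed genes named for a peak in a single list, and Nfkbie, were picked after their values were seen. Other overlap, threshold, list length and window settings were tried.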

Additional observations from a re-analysis of the deposited data

How the results depend on the processing

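The shared c-Maf region at Aif1 depended on the weaker peak of number 4. With only peaks at a q-value of 0.05 or smaller, at a p-value of 1e-05 or smaller, or with 50% reciprocal overlap, 0 shared c-Maf regions lay within 20 kb of the 7 genes and 0 of the 7 genes had one. The share of all genes was then 0.196%, 0.375% and 1.13%. The first 2 settings drop the peak of number 4, and the third fails because the shared 53 bp are 33.3% of the peak of number 3. Equal list lengths and summits within 200 bp kept 1 region and 3 genes (1.61% and 2.16% of all genes). With the gene span alone or 5 kb, 1 gene had the region (0.946% and 1.22% of all genes), and with 50 kb all 7 had it (3.17%). With 1 library left out, 1 to 2 regions lay near the 7 genes, 3 genes had one, and the share of all genes ranged from 1.96% to 44.4%. The second region, without c-Maf antibody number 4, was the peak in Bag6. Without c-Maf antibody number 3 the share was 34.0%, since a lone list is not filtered by a replicate. The nearest gene was Aif1 by gene span, gene boundary and start site, and among all annotated genes. No shared isotype region lay within 20 kb under any of these settings. Neither isotype list had a peak within 20 kb of the 7 genes, so no setting could have given one there. For the same reason, leaving out an isotype list could not change the region and gene counts near them. With the number as a replicate block, each c-Maf antibody list compared only with the isotype list of its number, 1 region and 3 genes were found and 1.9% of all genes had one, a setting chosen after the data were seen. Without isotype peaks near the 7 genes, the replicate block could not change their counts either. The labels do not say what libraries with the same number have in common. A typical peak held 4 to 6 tags, which limits what any single peak shows.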
